A study of Mus musculus with 18 samples.

Results

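Embryonic stem cells (ESCs) of mouse strain 129SV were compared in how far expression moved between arrays titled 0h and arrays titled 8h2h, in cells labelled KO against cells labelled Rescue. The value reported for a gene is the difference of changes, that is the 8h2h minus 0h change on the KO-labelled arrays minus the same change on the Rescue-labelled arrays, on the log2 scale. It used 12 of the 18 arrays of the study, 3 in each of 4 groups, chosen by their titles and paired by the slide letter a, b or c.

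By the labels, every array came from cells in which Esrrb had been knocked out and which express Raf-ErT2, so the controls carried both as well. Cells labelled Rescue had received a transgene coding for Esrrb and cells labelled KO an empty vector. The promoters of these constructs, and whether a line is 1 clone, are not given in the sources used here. All cells were grown with serum, LIF and 2 µM Chir99021, and spent the last 24 h before treatment with serum, LIF and 250 nM PD173074, an inhibitor of FGF receptors. Cells at 0h were untreated. The treatment text gives 250 nM 4-hydroxytamoxifen (4OHT) for 8 h, and for the longest arm a further 2 h with a Mek inhibitor. Titles and source names disagree on that last step, because the source names place the Mek inhibitor on the arrays titled 8h and not on those titled 8h2h. Groups are therefore named by title, and no treatment was assigned from the data. The labels do not tell whether letters a, b and c stand for separate cultures, and p-values here therefore reflect array-to-array spread alone, which may be technical.

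Raf-ErT2 is a Raf kinase domain fused to an oestrogen receptor domain, which 4OHT releases. Active Raf phosphorylates Mek, Mek phosphorylates ERK, and ERK induces immediate-early transcription factors such as Egr1 together with its own feedback inhibitors, such as the phosphatase Dusp6 and Spry4. In ESCs this cascade drives exit from the naive state, which is held by a network of factors including Nanog, Klf4, Tfcp2l1 and the nuclear receptor Esrrb, towards a formative state marked by Pou3f1, Otx2, Fgf5 and the DNA methyltransferases Dnmt3a and Dnmt3b.

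The 12 arrays were read as log2 signal scaled to the 75th percentile of each array, called log2 scaled signal below, so a value of 0 lies at that percentile. The percentile itself ran from 297 to 672 in the units of the scanner. The share of probes well above background was 53.6% to 63.8% for the 6 Rescue-labelled arrays and 46.6% to 52.8% for 5 of the KO-labelled ones. The remaining array, KO_8h2h replicate b, had 88.6% above background. Its negative controls had a median of 42, where those of the other 11 arrays had 24.5 to 28. It correlated with its replicates at 0.945 to 0.947 across genes, and all other replicate pairs lay between 0.983 and 0.996. Most differences of changes are given with all 12 arrays and, beside them, without this array. All 10 ESC markers, among them Pou5f1, Sox2, Nanog and Zfp42, were above background on all arrays of the 4 groups. The summed linear scaled signal of 9 trophoblast markers was 161 to 185 on the Rescue-labelled arrays at 0h and 232 to 256 at 8h2h, against 13 to 21.5 and 38.9 to 42.9 on the KO-labelled arrays. Such a sum follows its brightest members. Krt18 and Krt8, keratins of simple epithelia with means of 6.66 and 5.63 (log2) on the Rescue-labelled arrays at 0h, made up most of the sum there. The sum of 10 fibroblast markers was 2.18 to 2.49 and 5.05 to 5.86 against 2.19 to 2.83 and 9.99 to 14.9. Thy1, with a mean of 3.53 (log2) on the KO-labelled arrays at 8h2h, made up most of the sum there. Of the 10, 4 were above background on all 3 Rescue-labelled arrays at 0h and 7 at 8h2h, and 3 and 4 on the KO-labelled ones. Lum, a matrix gene, was above background on no array. For 10 primitive endoderm markers the sum was 30.1 to 33.9 on the Rescue-labelled and 37.9 to 46.9 on the KO-labelled arrays at 0h, with no overlap. At 8h2h it was 34.2 to 38.9 against 31.8 to 48.4, with overlap. In bulk RNA, fewer cells of a type and less RNA per cell cannot be told apart, and the part of these cell types in the results below was not tested.

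Esrrb itself gave signal in every group. The Rescue-labelled arrays read 4.13, 4.21 and 4.87 at 0h (replicates a, b and c, the order kept throughout) and 1.78, 1.53 and 1.57 at 8h2h. The KO-labelled arrays read 5.08, 4.74 and 5.27, then 4.30, 3.26 and 4.00. Signal was thus lower at 8h2h in both lines and higher on the KO-labelled array of each slide at both titles. The fall was 2.78 ± 0.23 (SE, n = 3 per group) on the Rescue-labelled arrays and 1.18 ± 0.23 on the KO-labelled ones. The difference of changes was 1.60 ± 0.33, with an adjusted p of 0.101 in the moderated test of limma. Without KO_8h2h replicate b it was 1.80 ± 0.30 (adjusted p = 0.0379), and over 27 alternatives the adjusted p ran from 0.00361 to 0.268. The files do not say if the single Esrrb probe reads a sequence that was removed in the knockout, so it checks neither label, and all directions between the lines rest on the labels as given.

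Few genes passed the test for a different change, and a gene short of it is not thereby shown to change alike in both lines. Of 15828 genes tested, 77 differed at an adjusted p under 0.05, which is 0.486% of them. The change was higher on the KO-labelled arrays for 49 (0.31%) and lower for 28 (0.177%). Without KO_8h2h replicate b 263 genes passed (1.66%), 143 higher (0.903%) and 120 lower (0.758%), and all 77 were among them with the same sign. At an unadjusted p under 0.05 there were 1838 genes, and 2332 without that array. For comparison, 2765 genes (17.5%) changed within the KO-labelled line, 8.98% up and 8.48% down, and 2700 (17.1%) within the Rescue-labelled line, 8.42% up and 8.64% down.

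All 77 genes had the same sign on the 3 slides, and their 3 changes in 1 line did not overlap the 3 in the other. Such non-overlap was seen in 22.4% of all genes tested. The 77 were chosen by a test on these same values, so neither trait is added support. The sizes ran from 0.88 to 5.06 with a median of 1.92, and the lowest adjusted p was 0.0148. The count rested on single arrays. It was 1, 24 and 9 without replicate a, b or c of the Rescue-labelled arrays at 0h, and 0, 0 and 6 without those titled 8h2h. Without replicates a, b or c of the KO-labelled arrays it was 0, 101 and 10 at 0h and 25, 263 and 34 at 8h2h. In limma the 3 counts of 0 stood beside 1538, 1249 and 1450 genes at an unadjusted p under 0.05, for the Rescue-labelled 8h2h replicates a and b and the KO-labelled 0h replicate a. With no scaling of the arrays 6 genes passed, 1 higher and 5 lower. Unscaled, the median change of all genes was 0.46 in the KO-labelled line and 0.36 in the Rescue-labelled line, so every change within a line is relative to the 75th percentile.

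**Figure D1:**
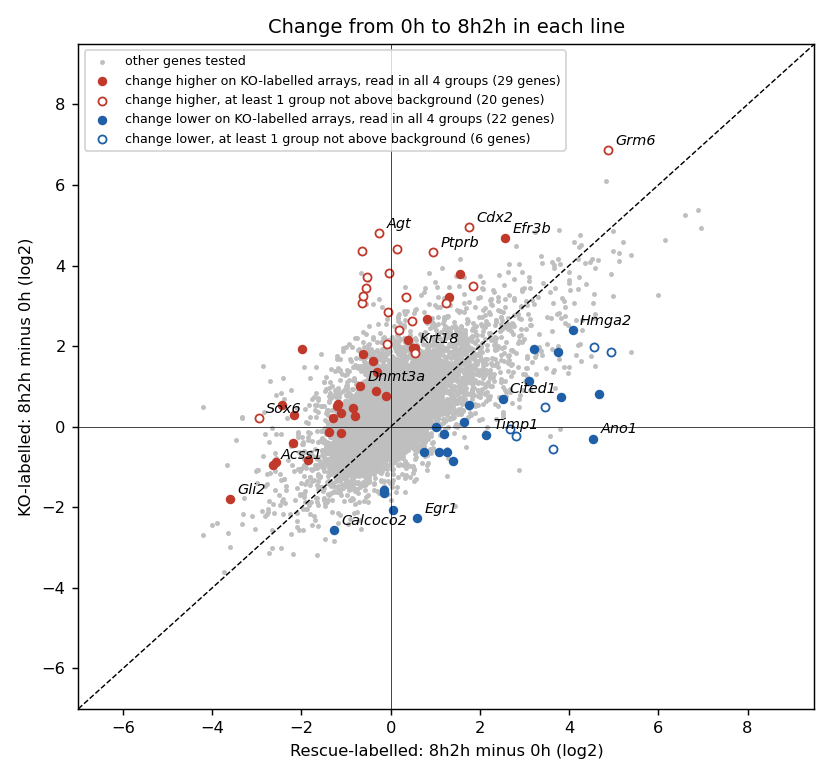
Change from 0h to 8h2h of each gene on the Rescue-labelled arrays (horizontal, log2) and on the KO-labelled arrays (vertical, log2), each a mean of 3 slides, with the dashed line marking equal change. The 49 genes called higher lie above that line and the 28 called lower below it, while open points have a group with no array above background and sit at fitted values that are not measured folds.

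Sorted by what each line did on its own, 23 of the 77 genes passed the test for a change in the KO-labelled line only and 21 in the Rescue-labelled line only. In 25 both lines changed in 1 direction by different amounts, and in 8 they changed in opposite directions. A gene past the threshold in 1 line only is not thereby shown to be still in the other, and the test of the difference is the value given for each gene. The same values can be read as a gap between the lines. The gap was called at 8h2h only for 35 genes and at 0h only for 13. It was called at both titles with the same sign for 12 and with opposite signs for 17. These patterns were not counted over all genes tested. Some of the 77 were tested only because they were read in 1 group titled 8h2h, which favours a gap there. Of the 15828 genes, the gap was called for 2210 (14%) at 0h and for 2712 (17.1%) at 8h2h.

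Among outputs of ERK signalling, Egr1 showed the difference with the lowest adjusted p. This zinc-finger transcription factor is an immediate-early gene. Rescue-labelled arrays read -0.50, 0.16 and 0.24 at 0h and 0.47, 0.67 and 0.57 at 8h2h. KO-labelled arrays read 1.53, 1.48 and 1.63 at 0h and -0.90, -0.64 and -0.64 at 8h2h. The KO-labelled line thus started above the other and ended below it, with no overlap at either title. Egr1 rose 1.52-fold in the Rescue-labelled line (0.60 ± 0.15, adjusted p = 0.0304) and fell 4.82-fold in the KO-labelled line (adjusted p = 0.00013). The difference of changes was -2.87 ± 0.21 (adjusted p = 0.0148), a factor of 7.31, and -2.88 ± 0.24 without KO_8h2h replicate b. It was called in 23 of 27 alternatives, with adjusted p from 7.21e-05 to 0.0805.

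Egr3, a related immediate-early factor, was above background only on the 3 Rescue-labelled arrays titled 8h2h, at -3.13, -3.03 and -3.02. Probes were tested only if all 3 arrays of a group were above background, and for this probe that group was this one. Being read there was therefore set by the choice of genes. A group in which all 3 arrays were dim gives a bound on the level and no value. Folds against it are written as at least so much, the dim level being set, array by array, to the lowest signal well above background or to the signal of the probe, whichever was higher. Every such bound that involves the KO-labelled arrays titled 8h2h includes replicate b. No bound was computed without that array. Egr3 rose at least 5.82-fold in the Rescue-labelled line and was at least 2.52-fold lower on the KO-labelled arrays titled 8h2h. The fitted difference of -2.59 (adjusted p = 0.0208) is not a measured fold, because 3 of the 4 groups were dim, and it was -2.47 without KO_8h2h replicate b. A dimmer Egr3 probe gave a fitted difference of -0.55 and, at 8h2h, read higher on the KO-labelled arrays (-4.14) than on the Rescue-labelled ones (-4.61), so the direction at 8h2h depends on the probe.

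None of the other ERK outputs named here passed on all 12 arrays. Dusp6 read 2.18, 2.46 and 3.44, then 0.15, 0.61 and 0.52 on the Rescue-labelled arrays, and 2.37, 2.30 and 2.34, then 0.06, 0.36 and 0.10 on the KO-labelled arrays. It fell 4.81-fold and 4.48-fold, with a difference of 0.10 ± 0.36 (adjusted p = 0.937), or -0.00488 ± 0.39 without KO_8h2h replicate b. Etv5, an ETS factor, differed by 0.16 ± 0.17 and Etv4 by -0.39 ± 0.45, or 0.20 and -0.16 without that array. Dusp4, another ERK phosphatase, rose 3.52-fold and 5.27-fold, a difference of 0.58 ± 0.17 (adjusted p = 0.23), or 0.63 ± 0.19 without it. Fosl1, an AP-1 subunit, rose 6.34-fold in the Rescue-labelled line, and its difference of -1.81 ± 0.65 (adjusted p = 0.32), or -1.66 ± 0.70 without it, came with KO-labelled 0h arrays at -4.03, -1.84 and -4.38. Myc, the growth regulator, fell 2.70-fold and 3.66-fold, and its pair of probes gave differences of opposite sign, -0.44 and 0.66, on all 12 arrays but -0.60 and -0.59 without KO_8h2h replicate b. Spry4 fell 4.59-fold in the KO-labelled line, where 1 of 3 arrays was above background at 8h2h, and 2.19-fold in the other line, short of the threshold (adjusted p = 0.0613). Its difference was -1.06 ± 0.49 (adjusted p = 0.46), and -1.54 ± 0.29 (adjusted p = 0.0497) without that array, within 0.0142 to 1 over its alternatives.

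Of 33 ERK feedback and immediate-early genes tested, 2 were called lower, Egr1 and Egr3, and 0 higher, beside 0.177% and 0.31% of all genes tested. The count was 3 and 0 without KO_8h2h replicate b, beside 0.758% and 0.903%. The same shares of all genes apply to each list below. The median difference over the 33 was -0.18 with and without it, beside 0.03 over all genes tested and -0.00452 over all genes without the array. Across 27 alternatives the median ran from -0.37 to -0.03. Within the lines, 9 of the 33 rose and 5 fell on the Rescue-labelled arrays, and 7 rose and 6 fell on the KO-labelled arrays. Of all genes tested, 8.42% rose and 8.64% fell on the Rescue-labelled arrays, and 8.98% rose and 8.48% fell on the KO-labelled arrays.

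Of 25 naive pluripotency genes 0 passed in limma on all 12 arrays, and 19 had a difference above 0, as did 8404 of all 15828 genes. The median was 0.36, and 0.50 without KO_8h2h replicate b. In that fit 3 passed as higher, Zfp42, Nr0b1 and Morc1, beside 0.903% of all genes tested. Across 27 alternatives the median ran from 0.22 to 0.50. The Rescue-labelled line had 11 lower and 1 higher and the KO-labelled line 8 lower and 2 higher. Over all genes tested, 8.64% were lower and 8.42% higher in the Rescue-labelled line, and 8.48% and 8.98% in the KO-labelled line.

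Zfp42 (Rex1), a marker of the naive state, read 5.20, 5.05 and 5.41 at 0h and 3.61, 3.32 and 3.37 at 8h2h on the Rescue-labelled arrays. The KO-labelled arrays read 6.20, 5.95 and 6.39, then 5.75, 5.12 and 5.79. Each KO-labelled array at 8h2h was above every Rescue-labelled one. The falls were 3.45-fold and 1.54-fold, and the difference was 1.16 ± 0.20 (adjusted p = 0.063), or 1.29 ± 0.18 (adjusted p = 0.0238) without KO_8h2h replicate b, with 0.0021 to 0.332 over the alternatives. Nr0b1 (Dax1), a corepressor of nuclear receptors, read 3.58, 3.43 and 3.60, then 4.66, 3.80 and 4.77 on the KO-labelled arrays, and 1.46, 1.51 and 1.66, then 1.09, 1.15 and 1.17 on the Rescue-labelled arrays. Replicate b was the lowest of the KO-labelled 8h2h arrays. The difference was 1.28 ± 0.28 (adjusted p = 0.114) with it and 1.56 ± 0.14 (adjusted p = 0.0113) without it, in a range of 0.00119 to 0.449. Morc1, a germline silencing factor, differed by 0.89 ± 0.16 (adjusted p = 0.0746) and by 0.96 ± 0.17 (adjusted p = 0.0394) without that array, in a range of 0.00263 to 0.82.

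Nanog fell 10.0-fold on the Rescue-labelled arrays, from 2.52, 2.22 and 1.62 to -0.48, -1.77 and -1.37. On the KO-labelled arrays it fell 5.29-fold, from 3.84, 3.42 and 3.64 to 1.82, 0.70 and 1.17. The levels of the lines did not overlap at either title, but the difference of changes, 0.92 ± 0.34, had an adjusted p of 0.329, and was 1.08 ± 0.34 without KO_8h2h replicate b. A much dimmer Nanog probe gave 0.33, and -0.57 without that array. The differences were 0.36 ± 0.25 for Klf4, 0.39 ± 0.23 for Klf2, -0.28 ± 0.25 for Klf5, 0.97 ± 0.52 for Tfcp2l1 and -0.43 ± 0.42 for Tbx3, none past the test. Without KO_8h2h replicate b they were 0.58, 0.50, -0.05, 1.43 and -0.13, again short of it. These are naive-network transcription factors. Among the core factors Pou5f1 differed by -0.14 ± 0.27 and Sox2 by 0.22 ± 0.19, both short of the threshold, and by 0.04 and 0.35 without that array, which turned the sign for Pou5f1. Of 12 core pluripotency genes 0 passed on 12 arrays. Without KO_8h2h replicate b 1 did, the RNA-binding protein gene Lin28a, at 0.93 ± 0.17 (adjusted p = 0.0481, 0.00554 to 0.945 over the alternatives) against 0.76 ± 0.21 (adjusted p = 0.199) with it.

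Dnmt3a, a de novo DNA methyltransferase, changed in opposite directions. Rescue-labelled arrays went from 0.10, -0.15 and -0.05 to -0.41, -0.97 and -0.76, and KO-labelled arrays from -0.33, -0.21 and -0.80 to 0.90, 0.28 and 0.50. At 0h the lines overlapped, and at 8h2h they did not. It fell 1.60-fold (adjusted p = 0.0346) in the Rescue-labelled line and rose 2.01-fold (adjusted p = 0.00745) in the KO-labelled line. The difference was 1.69 ± 0.25 (adjusted p = 0.0447), and 1.80 ± 0.25 without KO_8h2h replicate b, and its other probe gave 1.24. Its paralogue Dnmt3b differed by 1.17 ± 0.31 (adjusted p = 0.175), or 1.14 ± 0.34 without that array, with all 3 of its probes above 0. Pou3f1, a POU factor of the formative state, read 1.42, 1.32 and 2.05, then 1.89, 1.87 and 1.98 on the Rescue-labelled arrays, and -0.70, 0.22 and -0.37, then 1.70, 1.97 and 1.81 on the KO-labelled arrays. The lines were apart at 0h and overlapped at 8h2h. The difference of 1.79 ± 0.33 did not pass (adjusted p = 0.0786, and 0.0706 without KO_8h2h replicate b), although it did in 8 of 27 alternatives, in a range of 0.00507 to 0.259. Otx2, a homeobox factor, differed by 0.52 ± 0.39, or 0.38 ± 0.41 without it. Fgf5, a growth factor of the epiblast, was above background on 0 of 3 KO-labelled arrays at 0h and 1 of 3 at 8h2h. Those at 8h2h read -5.24, -3.17 and -4.82, so KO_8h2h replicate b, with the raised background, was the highest. The fitted difference, with a dim group, was 1.21 ± 0.61, or 0.62 ± 0.36 without that array, both short of the threshold. Of 21 formative and primed epiblast genes Dnmt3a alone passed, with and without the array. Their median was 0.56, and 0.37 without the array, and ran from 0.15 with quantile normalization to 0.81 over the alternatives.

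Among trophoblast genes and simple keratins, 2 of 18 passed as higher, Cdx2 and Krt18, beside 0.31% of all genes tested. Krt18, a keratin of simple epithelia, rose 3.84-fold on the KO-labelled arrays, from 3.05, 3.27 and 2.62 to 4.83, 4.88 and 5.06. The Rescue-labelled arrays read 6.70, 6.73 and 6.56, then 7.05, 7.29 and 7.12, a difference of 0.49 ± 0.16 that did not pass (adjusted p = 0.0715). Krt18 stayed lower on the KO-labelled arrays, by 3.68 ± 0.16 at 0h and 2.23 ± 0.16 at 8h2h. The difference of changes was 1.45 ± 0.22 (adjusted p = 0.0478), and 1.56 ± 0.23 without KO_8h2h replicate b. Its dimer partner Krt8 differed by -0.75 ± 0.17 (adjusted p = 0.128), or -0.86 ± 0.16 without that array, and the KO-labelled arrays read 2.50, 2.22 and 1.84 at 0h and 2.16, 2.27 and 1.68 at 8h2h.

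Cdx2, a homeobox factor of trophectoderm and hindgut, was above background on no KO-labelled array at 0h and on all 3 at 8h2h, at -0.44, -0.37 and -0.50. Rescue-labelled arrays went from -1.87, -2.03 and -2.08 to -0.36, -0.11 and -0.25, a 3.37-fold rise. The rise on the KO-labelled arrays was at least 16.0-fold, at least 4.76 times that in the other line, from a level at least 5.46-fold lower at 0h. At 8h2h the lines differed by -0.20 ± 0.35 (adjusted p = 0.754). Hand1, a basic helix-loop-helix factor of trophoblast and mesoderm, was likewise dim on the KO-labelled arrays at 0h, rose at least 7.88-fold there and 6.99-fold on the Rescue-labelled arrays, and was not called (adjusted p = 0.444). No gene of the list passed as lower, and the 2 calls held without KO_8h2h replicate b. The median of the 18 was 0.37, but 0.06 without the array and -0.11 under normexp background correction.

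**Figure D2:**
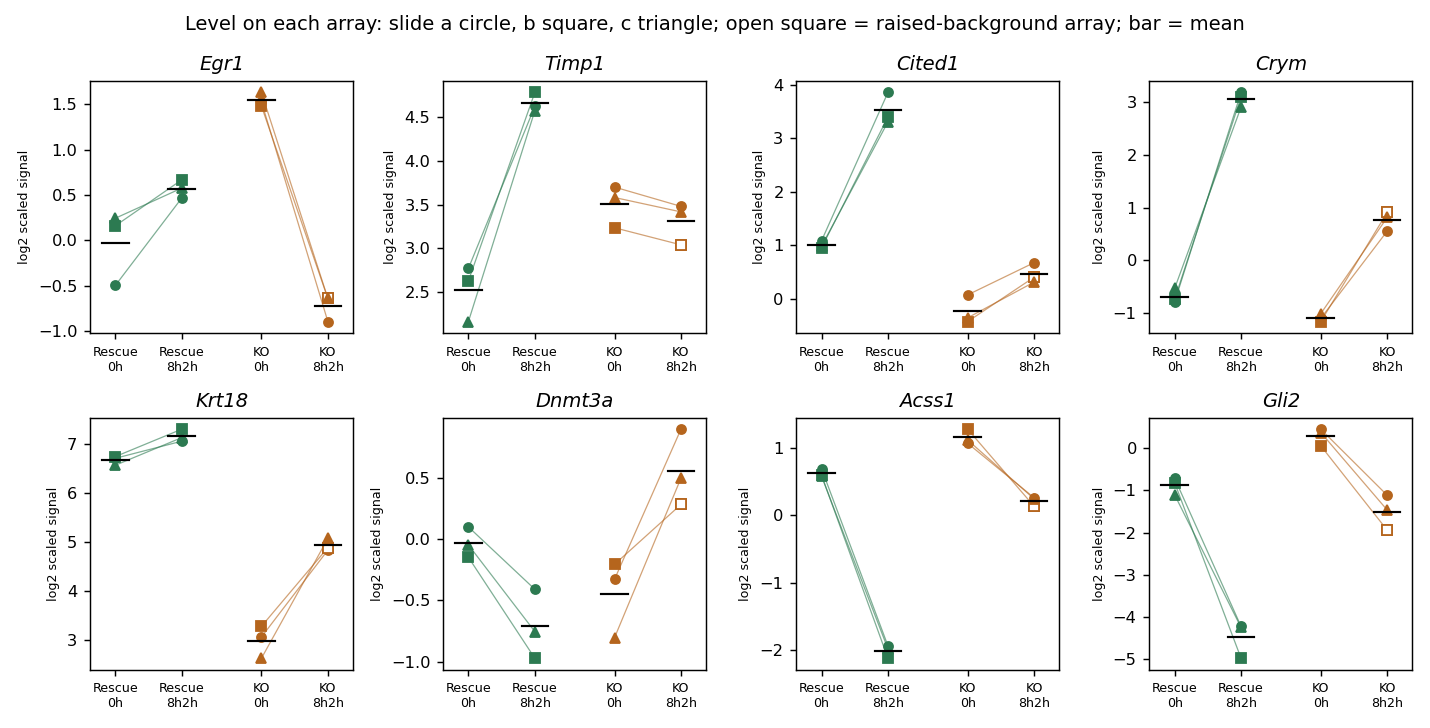
Log2 scaled signal (vertical) of 8 genes on each of the 12 arrays, by group (horizontal), with lines joining arrays of 1 slide and bars at the group means (n = 3). Egr1 falls on the KO-labelled arrays and rises on the Rescue-labelled ones, Timp1, Cited1 and Crym have the higher change on the Rescue-labelled arrays, Krt18 and Dnmt3a have the higher change on the KO-labelled arrays, and Acss1 and Gli2 fall in both lines but further on the Rescue-labelled ones.

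Cited1, a transcriptional coregulator that binds CBP and p300, had a change that was 3.51 times smaller on the KO-labelled arrays. Rescue-labelled arrays rose from 1.09, 0.96 and 0.98 to 3.86, 3.40 and 3.31, and KO-labelled arrays from 0.08, -0.42 and -0.35 to 0.68, 0.41 and 0.31. The KO-labelled arrays were lower at both titles, and their highest value at 8h2h was below the lowest of the Rescue-labelled arrays at 0h. The rises were 5.70-fold and 1.62-fold. The difference of -1.81 ± 0.16 (adjusted p = 0.0157) was -1.84 ± 0.18 without KO_8h2h replicate b, and was called in 21 of 27 alternatives. In the list of 20 Nodal and BMP pathway genes Cited1 was the 1 gene called on 12 arrays. The median of the 20 was -0.23, and -0.51 without KO_8h2h replicate b.

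Endoderm and streak genes gave few calls. Amn, which encodes the membrane partner of cubilin in absorptive epithelia such as visceral endoderm, read -2.69, -2.55 and -2.46, then -2.69, -2.63 and -2.70 on the Rescue-labelled arrays, and -2.78, -2.58 and -2.57, then -1.88, -1.88 and -1.85 on the KO-labelled arrays. It rose on the KO-labelled arrays alone by the test, 1.71-fold, and the difference was 0.88 ± 0.14 (adjusted p = 0.0478), or 0.90 ± 0.15 without KO_8h2h replicate b. Of 22 primitive endoderm genes it was the 1 called. The forkhead factor gene Foxa2, also in the streak list, read -4.13, -3.55 and -3.92, then -0.76, -1.63 and -0.26 on the KO-labelled arrays. Rescue-labelled arrays read -2.94, -2.22 and -1.08, then -2.69, -2.09 and -2.06. Its difference was 3.18 ± 0.56 (adjusted p = 0.071) with all arrays and 3.62 ± 0.46 (adjusted p = 0.0206) without KO_8h2h replicate b, in a range of 0.000859 to 0.412. Gata6 and Sox17, endoderm factors, differed by 0.34 ± 0.42 and 0.81 ± 0.60, or 0.25 and 0.31 without it. The endoderm median was 0.32 but turned to -0.03 without the array and -0.16 with quantile normalization. The 14 primitive streak and Wnt target genes had a median of 0.58 with 0 calls in limma, and 0.44 with 1, Foxa2, without KO_8h2h replicate b, from 0.09 with quantile normalization to 0.97 over the alternatives.

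The remaining lists gave no call on 12 arrays in limma: 0 of 23 sterol synthesis genes, 0 of 20 ATF4 and amino acid stress genes, 0 of 22 glycolysis and hypoxia genes, 0 of 17 integrin, laminin and collagen genes, 0 of 10 fibroblast markers, 0 of 10 ESC markers, 0 of 23 actin and SRF targets, 0 of 20 p53 targets, 0 of 16 LIF and STAT3 targets, 0 of 23 DNA replication genes and 0 of 24 ribosome biogenesis genes. Of all 15828 genes tested, 8404 had a difference above 0. Sterol genes had a median of -0.30, with 4 of 23 above 0, and -0.37 without KO_8h2h replicate b, in a range of -0.44 to -0.18 over 27 alternatives. ATF4 genes had a median of 0.26, with 17 of 20 above 0, which single arrays moved: it was 0.48 without KO_8h2h replicate b, 0.17 without KO_8h2h replicate c, and 0.11, 0.08 and 0.08 without Rescue_8h2h replicate a, KO_8h2h replicate a and Rescue_0h replicate b. Without KO_8h2h replicate b further genes of these lists were called, of which 4 are given here. Of these, 3 rose more on the KO-labelled arrays: the stress factor Atf3, the laminin receptor chain Itga3, at 1.35 ± 0.18, and the surface glycoprotein Thy1, at 1.30 ± 0.16. Atf3 was dim on the KO-labelled arrays at 0h, so its 1.73 ± 0.19 is a fitted value and no measured fold. With all 12 arrays Atf3 was up at least 2.37-fold on the KO-labelled arrays, which read -3.55, -2.31 and -3.72 at 8h2h. That bound includes replicate b, the highest of these. The hypoxia-induced carbonic anhydrase Car9, at -1.65 ± 0.28, had the lower change. With all 12 arrays the adjusted p values of Atf3, Itga3, Thy1 and Car9 were 0.0955, 0.102, 0.231 and 0.071. Without the array the other probes of Itga3 and Car9 gave smaller differences, 0.20 and -0.58. The fibroblast list turned from 0.36 to -0.42 without the array, and its median on the slides was 0.24, 0.54 and -0.76.

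**Figure D3:**
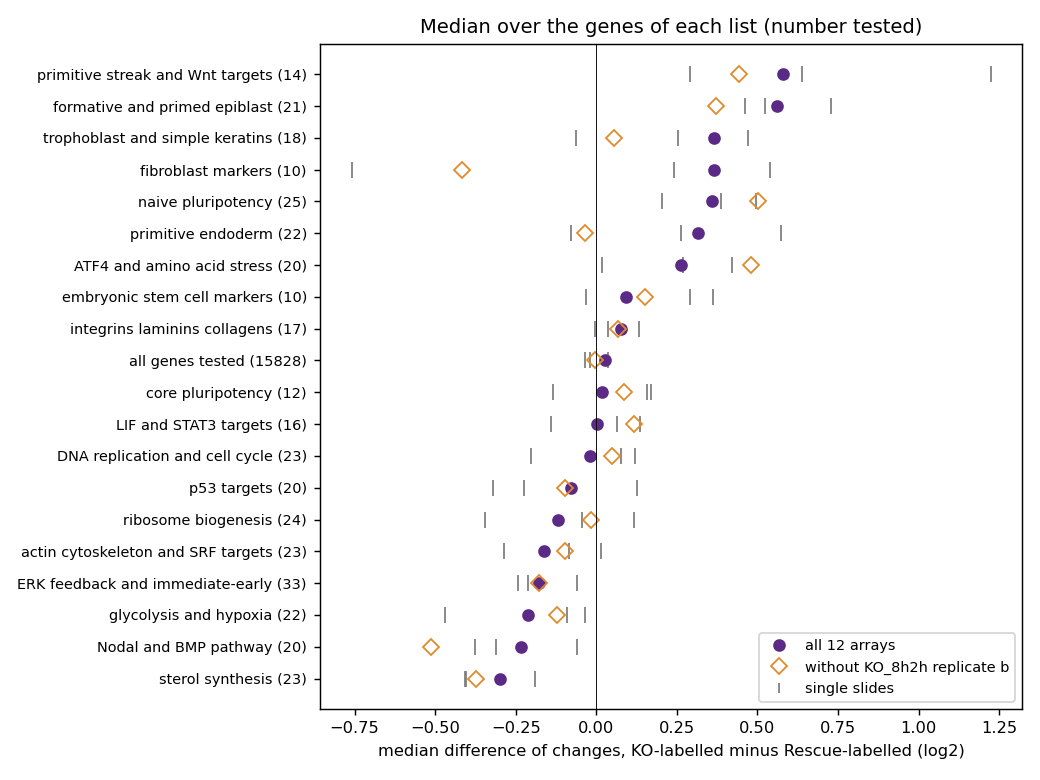
Median difference of changes (horizontal, log2) over the tested genes of each fixed list and over all genes tested, with all 12 arrays (filled), without KO_8h2h replicate b (diamonds) and on single slides (ticks). The naive list moves from 0.36 to 0.50 without that array, while the endoderm and fibroblast medians fall below 0.

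A set of genes with a higher change on the KO-labelled arrays was above background in 1 group. Agt, which encodes angiotensinogen, was above background on all 3 KO-labelled arrays titled 8h2h, at -1.44, -2.24 and -1.64, and on no array of the other 3 groups. It was at least 6.35-fold higher there than at 0h and at least 19.0-fold higher than on the Rescue-labelled arrays titled 8h2h. Lrrtm3, a synaptic leucine-rich repeat protein gene, read -2.67, -2.06 and -1.50 in the same group, at least 5.15-fold above 0h and 15.4-fold above the other line. Spata4, a testis gene, read -2.71, -1.23 and -2.62, at least 4.77-fold and 14.3-fold higher by a mean that includes replicate b, the highest of these. The olfactory receptor gene Olfr1241 read -3.88, -2.73 and -2.37, at least 2.72-fold and 8.15-fold higher. A gene was tested only if all 3 arrays of a group were above background, and for these 4 that group was this one. Their reading on replicates a and c was therefore set by the choice of genes. All 4 were still called in the fit without replicate b, with fitted differences of 5.34, 4.91, 3.81 and 3.91.

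A further group was dim on the KO-labelled arrays at 0h and read at 8h2h. Meox1, a homeobox gene of paraxial mesoderm, reached -1.57, -2.18 and -1.29 on the KO-labelled arrays, a rise of at least 6.78-fold, where the Rescue-labelled arrays read -5.12, -5.59 and -5.09, then -5.22, -5.41 and -5.24. Ptprb, an endothelial receptor phosphatase, reached -1.79, -2.23 and -2.00, at least 5.39-fold up, against a rise of 1.95-fold from -4.39, -4.22 and -3.89 in the other line. Pigw, an acyltransferase of GPI-anchor synthesis, and Gpr146, a G-protein-coupled receptor, rose at least 3.90-fold and 2.50-fold, while the Rescue-labelled change was -0.61 ± 0.41 and -0.07 ± 0.28. With bounds in place of the dim group, the differences of changes were at least 6.90-fold for Meox1, 2.77-fold for Ptprb, 5.96-fold for Pigw and 2.62-fold for Gpr146. Ccdc3, a secreted coiled-coil protein gene, reached -2.52, -2.87 and -2.34 on the KO-labelled arrays at 8h2h, at least 3.64-fold above 0h, and was above background on 2 of 6 Rescue-labelled arrays. It was tested only through the KO-labelled arrays titled 8h2h, so being read there was set by the choice of genes.

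Mmd2 and Sox6 both fell in the Rescue-labelled line, and Sox6 was above background in that line alone. Mmd2, of the progestin and adipoQ receptor family, fell 3.94-fold on the Rescue-labelled arrays, from -2.18, -1.31 and -1.49 to -3.69, -3.44 and -3.79. On the KO-labelled arrays it rose from -4.35, -3.07 and -5.39, above background on 1 of 3, to -2.76, -1.11 and -3.13. The difference was 3.91 ± 0.61 (adjusted p = 0.0478), and 3.59 ± 0.60 without KO_8h2h replicate b. Sox6, an HMG-box factor, was above background on the Rescue-labelled arrays at 0h only, at -4.31, -4.81 and -4.40, and fell at least 2.86-fold in that line. It was tested only through those 0h arrays, so being read on them was set by the choice of genes.

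Ano1, a calcium-activated chloride channel gene, had a lower change on the KO-labelled arrays. It rose 23.3-fold on the Rescue-labelled arrays, from -5.34, -4.76 and -4.74, above background on 2 of 3, to -0.35, -0.45 and -0.42. KO-labelled arrays read -3.33, -4.49 and -3.11 at 0h and -4.43, -3.57 and -3.84 at 8h2h, with overlap. The difference of changes was -4.84 ± 0.51 (adjusted p = 0.0177), and -5.15 ± 0.48 without KO_8h2h replicate b. Timp1, a secreted inhibitor of matrix metalloproteinases, rose 4.40-fold on the Rescue-labelled arrays, from 2.77, 2.63 and 2.16 to 4.62, 4.78 and 4.57. On the KO-labelled arrays it read 3.70, 3.23 and 3.58, then 3.48, 3.04 and 3.42. Those arrays were higher at 0h and lower at 8h2h, and the difference was -2.33 ± 0.26 (adjusted p = 0.0208), or -2.20 ± 0.26 without KO_8h2h replicate b.

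Mks1, a protein of the ciliary transition zone, rose 8.55-fold on the Rescue-labelled arrays, from 1.71, 1.93 and 1.19 to 4.49, 4.99 and 4.64, and 2.21-fold on the KO-labelled ones, from 1.77, 1.74 and 1.73 to 2.69, 2.79 and 3.18. The lines overlapped at 0h and not at 8h2h, and the difference was -1.95 ± 0.30 (adjusted p = 0.0478), or -1.81 ± 0.30 without KO_8h2h replicate b, and its other probe gave -1.35. She, an SH2-domain adaptor, read -2.30, -2.60 and -2.63, then -2.30, -2.74 and -2.36 on the Rescue-labelled arrays. It fell 4.21-fold on the KO-labelled arrays, from 0.38, -0.50 and 0.34 to -1.64, -2.44 and -1.92, so the line gap narrowed from 2.59 ± 0.16 to 0.47 ± 0.16. The difference was -2.12 ± 0.23 (adjusted p = 0.0196), or -2.06 ± 0.25 without KO_8h2h replicate b. Rbfaos, an RNA annotated opposite Rbfa, rose 2.65-fold in the Rescue-labelled line and fell 1.80-fold in the KO-labelled line, a difference of -2.25 ± 0.33 (adjusted p = 0.0447), or -2.15 ± 0.35 without that array. Strand is not marked in the files, so overlap with Rbfa could not be checked.

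Another 5 named genes with the lower change were, like Egr3, above background in 1 group, the Rescue-labelled arrays titled 8h2h. The probe used for each was tested only because all 3 arrays of this group were above background. Being read there was therefore set by the choice of genes. Cntnap4, a neuronal cell-surface protein, read -2.49, -2.14 and -2.14 and rose at least 10.2-fold. Stac, a calcium-channel adaptor, read -4.26, -3.12 and -3.59 and rose at least 3.84-fold. Ptpn22, a lymphocyte tyrosine phosphatase, rose at least 2.71-fold, Togaram2 at least 1.99-fold and the potassium channel gene Kcna1 at least 1.85-fold. On the KO-labelled arrays titled 8h2h Cntnap4 was at least 4.40-fold lower, Stac 1.77-fold and Ptpn22 1.25-fold, and for Togaram2 and Kcna1 no fold between the lines can be given. A dimmer Cntnap4 probe gave a fitted difference of -0.91 against -3.10, with 8h2h means of -4.22 on the Rescue-labelled and -4.72 on the KO-labelled arrays, so the size depends on the probe.

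The following genes lie outside the naming rule and were chosen after their values were seen, because each was read on all 12 arrays and both lines changed in 1 direction. Acss1, a mitochondrial acetyl-CoA synthetase, fell from 0.69, 0.59 and 0.58 to -1.94, -2.12 and -1.98 on the Rescue-labelled arrays and from 1.06, 1.27 and 1.11 to 0.26, 0.13 and 0.24 on the KO-labelled arrays. The falls were 6.21-fold and 1.92-fold, and the difference was 1.69 ± 0.15 (adjusted p = 0.0157). Gli2, a transcription factor of Hedgehog signalling, fell 12.1-fold and 3.47-fold, a difference of 1.80 ± 0.26 (adjusted p = 0.0447). The Ras-family GTPase gene Mras fell 5.92-fold and 1.83-fold, and the GATA-type repressor gene Trps1 3.61-fold and 1.79-fold. Without KO_8h2h replicate b the differences were 1.73, 1.90, 1.88 and 1.07, all called. For these 4 genes the KO-labelled arrays were higher at 0h and by more at 8h2h.

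Crym, a cytosolic thyroid hormone-binding protein gene, rose from -0.79, -0.74 and -0.53 to 3.18, 3.10 and 2.90 on the Rescue-labelled arrays, and from -1.10, -1.16 and -1.01 to 0.55, 0.91 and 0.81 on the KO-labelled arrays. Starting levels differed by -0.40 ± 0.14 (adjusted p = 0.0956) and end levels by -2.30 ± 0.14 (adjusted p = 0.000191), and the difference of changes was -1.90 ± 0.19 (adjusted p = 0.0177), or -1.99 ± 0.20 without KO_8h2h replicate b. The chromatin protein gene Hmga2 rose 16.9-fold and 5.24-fold, and the chemokine gene Cxcl14 rose 9.24-fold and 3.79-fold. In both, the KO-labelled arrays were higher at 0h, and the differences were -1.69 and -1.28, or -1.50 and -1.20 without that array. In the other direction Efr3b, which anchors a phosphatidylinositol kinase at the plasma membrane, rose 5.93-fold on the Rescue-labelled and 25.7-fold on the KO-labelled arrays, and the guanine nucleotide exchange factor gene Arhgef28 rose 2.94-fold and 13.7-fold, with differences of 2.12 and 2.22, or 2.38 and 2.37 without that array. Calcoco2, an autophagy receptor gene, was the 1 gene that fell in both lines and further on the KO-labelled arrays, 2.39-fold against 5.93-fold, with a difference of -1.31, or -1.34 without that array.

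A second set, chosen in the same way, changed in opposite directions or in 1 line. Atp6v0a4, a subunit of the vacuolar proton pump, rose from -1.79, -1.88 and -1.90 to -0.65, -0.69 and -0.99 on the Rescue-labelled arrays and fell from -0.98, -0.75 and -0.60 to -1.35, -1.32 and -1.56 on the KO-labelled arrays. The order of the lines was thus reversed between the titles, with no overlap at either, and the difference was -1.71 ± 0.20 (adjusted p = 0.0247), or -1.74 ± 0.22 without KO_8h2h replicate b. Cacna2d2, an auxiliary calcium channel subunit gene, fell 1.80-fold on the Rescue-labelled and rose 1.39-fold on the KO-labelled arrays, a difference of 1.33 ± 0.18 (adjusted p = 0.0416), or 1.39 ± 0.19 without it.

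The guidance cue gene Ntn1 (netrin-1) and Neo1, which encodes a netrin receptor, differed with opposite signs. Ntn1 fell 4.46-fold on the Rescue-labelled arrays, from -3.28, -3.28 and -3.06 to -5.32, -5.56 and -5.22, and read -1.44, -1.68 and -1.20, then -0.46, -1.84 and -1.10 on the KO-labelled arrays, where the titles overlapped. Its difference was 2.46 ± 0.34 (adjusted p = 0.0416), or 2.73 ± 0.27 without KO_8h2h replicate b. Neo1 rose 3.12-fold on the Rescue-labelled arrays, from -0.11, -0.07 and 0.52 to 1.73, 1.82 and 1.69, and read 0.36, 0.23 and 0.62, then 0.52, 0.34 and 0.70 on the KO-labelled arrays. Its difference was -1.52 ± 0.22 (adjusted p = 0.0443), or -1.48 ± 0.23 without that array.

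**Figure D4:**
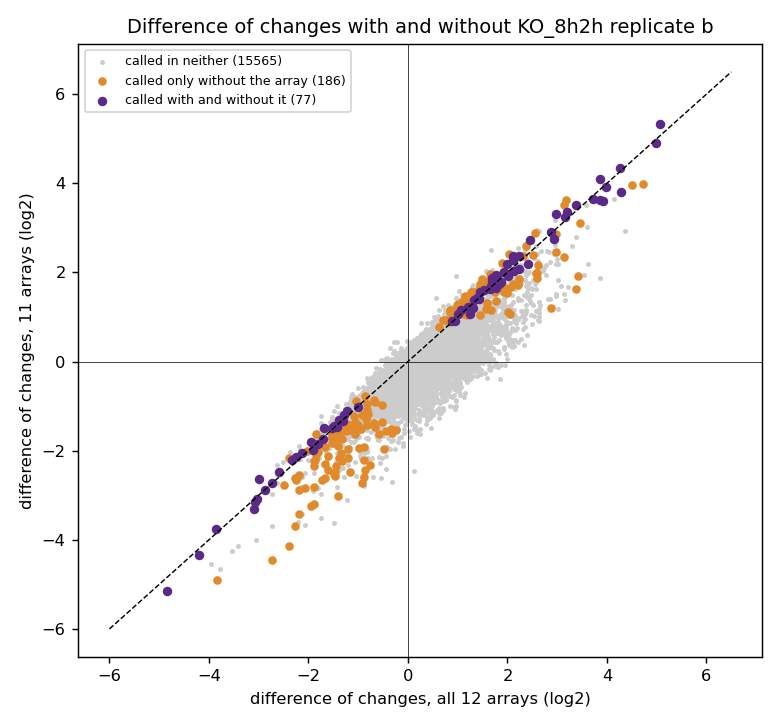
Difference of changes of each gene with all 12 arrays (horizontal, log2) and without KO_8h2h replicate b (vertical, log2). The 77 genes called in both lie along the dashed line of equal values, and the 186 called only without the array lie on both sides of 0 and up to several log2 units from 0.

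Promoters were searched for the binding sequence of Esrrb, the receptor that separates the lines by label. Windows of 250 bases before to 50 after a start site were taken from RefSeq for the mouse build GRCm38.p6, and 39 of the 49 genes called higher and 16 of the 28 called lower had at least 1. The full site TCAAGGTCA, on either strand, was in 0 of 39 and 0 of 16, against 0.327% of the 12528 tested genes with a window and 0.466% of all 27025 genes of the table. Its core AAGGTCA, which the full site contains, was in 4 of 39 (10.3%) and 2 of 16 (12.5%), against 4.31% and 5.38%. Among genes called without KO_8h2h replicate b it was in 6 of 109 (5.5%) and 4 of 82 (4.88%). The AP-1 sequence TGANTCA was in 4 of 39 and 0 of 16, against 6.7% and 8.97%. Without KO_8h2h replicate b it was in 5 of 109 (4.59%) and 11 of 82 (13.4%), so the order of the 2 directions turned. A match describes these letters and no bound site.

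The core was held by 3 of the genes named by rule, Cited1, Sox6 and Olfr1241, and their windows are printed because no named gene held the full site, a choice made after the matches were seen. They run 5′ to 3′ on the gene's strand, which is minus for all, with the core or its reverse complement in capitals. The window of Cited1 lies at chrX:102250727-102251026, those of Sox6 at chr7:116030998-116031297 and chr7:115846091-115846390, and that of Olfr1241 at chr2:89483084-89483383. The core begins at -217 from the start of Cited1, at -75 and -199 from the starts of Sox6 and at -7 from that of Olfr1241.
Cited1: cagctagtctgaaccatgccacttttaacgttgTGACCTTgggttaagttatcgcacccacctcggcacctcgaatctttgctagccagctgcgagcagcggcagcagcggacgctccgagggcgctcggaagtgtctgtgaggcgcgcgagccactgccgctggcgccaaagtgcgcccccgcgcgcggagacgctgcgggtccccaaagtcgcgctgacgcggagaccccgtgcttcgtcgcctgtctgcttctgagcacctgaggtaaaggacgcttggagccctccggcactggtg
Sox6 upstream window: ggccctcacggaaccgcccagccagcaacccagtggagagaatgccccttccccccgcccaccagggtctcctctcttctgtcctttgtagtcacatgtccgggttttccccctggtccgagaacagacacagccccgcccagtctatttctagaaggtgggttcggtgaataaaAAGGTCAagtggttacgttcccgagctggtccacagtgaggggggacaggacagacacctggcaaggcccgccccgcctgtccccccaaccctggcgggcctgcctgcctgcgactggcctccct
Sox6 downstream window: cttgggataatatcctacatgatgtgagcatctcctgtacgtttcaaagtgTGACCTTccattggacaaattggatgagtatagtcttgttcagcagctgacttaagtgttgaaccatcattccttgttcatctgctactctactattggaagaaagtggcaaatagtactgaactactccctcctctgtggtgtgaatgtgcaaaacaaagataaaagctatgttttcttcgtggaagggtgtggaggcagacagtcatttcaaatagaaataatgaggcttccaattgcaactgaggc
Olfr1241: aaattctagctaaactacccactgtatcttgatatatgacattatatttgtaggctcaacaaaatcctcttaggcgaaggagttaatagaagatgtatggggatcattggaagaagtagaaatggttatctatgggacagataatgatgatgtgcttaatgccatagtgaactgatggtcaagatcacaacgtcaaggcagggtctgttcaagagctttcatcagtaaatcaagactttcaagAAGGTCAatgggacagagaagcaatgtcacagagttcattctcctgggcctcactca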

How the data were processed

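RNA was hybridised to Agilent arrays and read in 1 colour, and the deposited spot intensity was extracted with Agilent Feature Extraction 12.0.1.1, per the file headers, which background-subtracted it; the flags for signal above background, outliers and saturation come from the same deposited files. The label text names Cy5, while the file headers give 1 green channel. From these, log2 of the processed intensity minus the 75th percentile of non-control spots was computed per array. Of 56605 probes, 33480 passed the background flag on each array of 1 or more of the 4 groups, and the brightest probe stood for each of 15828 genes. All comparisons came from 1 fit in limma 3.58.1 (R 4.3.3) on 12 arrays, with slide as a block, 6 residual degrees of freedom and Benjamini-Hochberg adjustment over all genes. Each slide holds 1 letter and all groups, and groups keep their position across slides, so that position and group cannot be told apart. Same-slide deviations correlated above 0.1 in 10 of 18 pairs (median 0.135), against 1 of 36 pairs on different slides. The number of arrays, 3 a group, limits the precision. The code was tested on simulated data. Promoters and figures used Python 3.11.15.

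Genes, gene lists and the comparison itself were chosen with earlier results of these data known. The naming rule took the 12 highest and 12 lowest differences among called genes with the same sign on 3 slides and a gene name that is not a clone or predicted one, up to 4 called members of each list, and fixed genes of pluripotency, ERK signalling and lineage whatever their values. List members called only without KO_8h2h replicate b were named after their values were seen. The alternatives are given in the closing section. Some list members are not reported here.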

Additional observations from a re-analysis of the deposited data

Results flagged for a closer look

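For each gene named by rule among those called, the change differed between the lines by the test of the difference itself (limma, adjusted p under 0.05, all 12 arrays), which is why it is listed again here. Higher on the KO-labelled arrays, the differences were 5.06 for Agt, 4.99 for Lrrtm3, 4.29 for Spata4, 3.98 for Olfr1241, 3.91 for Mmd2, 3.86 for Pigw, 3.85 for Meox1 and 3.37 for Ptprb. They were 3.19 for Cdx2, 3.16 for Sox6, 2.93 for Gpr146, 2.88 for Ccdc3, 1.69 for Dnmt3a, 1.45 for Krt18 and 0.88 for Amn. Lower on the KO-labelled arrays, they were -1.81 for Cited1, -1.95 for Mks1, -2.12 for She, -2.25 for Rbfaos, -2.33 for Timp1, -2.59 for Egr3 and -2.73 for Kcna1. They were -2.87 for Egr1, -2.99 for Ptpn22, -3.03 for Togaram2, -3.10 for Cntnap4, -4.20 for Stac and -4.84 for Ano1. Those of Agt, Lrrtm3, Spata4, Olfr1241, Pigw, Meox1, Ptprb, Cdx2, Sox6, Gpr146, Ccdc3, Egr3, Kcna1, Ptpn22, Togaram2, Cntnap4 and Stac are fitted values with a group not above background, so they rank no measured folds.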

How the results depend on the processing

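All 28 named called genes kept their direction in each of the 26 or 27 alternatives that gave a value, and passed the threshold in 8 to 23 of them. Of these alternatives, 1 used the values deposited by the authors, which are the values used here, so it repeats the result. No replicate block on all 12 arrays, a random block, the other prior and all 18 arrays leave the estimates unchanged. Those fits alter the p-values and could not alter a direction. The count of 77 genes became 86 with no replicate block, 307 with no replicate block and KO_8h2h replicate b left out, and 142 with slide as a random block. It was 481 in a fit of all 18 arrays, 46 after quantile normalization, 6 with no scaling, 127 with the percentile over probes above background on all 12 arrays, and 69 with normexp. With no filter on dim probes it was 0 in limma (1790 genes at an unadjusted p under 0.05), with only probes above background on all 12 arrays 135, with a trended and robust prior 172, and with array weights, whose estimation stopped before converging, 1601. Genes called higher were 63.6% of the 77, 74% with that other percentile, 50.7% with normexp, and 45.1% of 91 without slide b, which was added after seeing the data. Leaving out 1 array gave 0 to 263 genes for the difference, 1542 to 3311 for the KO-labelled change, 1454 to 3966 for the Rescue-labelled change, 1034 to 3593 for the lines at 0h and 1301 to 3551 at 8h2h. In that order of the last 4 comparisons, all 18 arrays gave 4330, 4063, 3548 and 4123, array weights 4553, 7141, 4644 and 6753, and a 2-fold minimum 1230, 1204, 1183 and 1257. No scaling gave 1532 for the Rescue-labelled change and 862 and 1061 for the lines at 0h and 8h2h, no filter on dim probes 1682 and 1739 for the KO- and Rescue-labelled changes, and no replicate block without KO_8h2h replicate b 3432 at 0h. The cause of these shifts was not tested. Signal over background limits the genes read in some groups only.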
